A study of Mus musculus with 6 samples.

Results

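Of the 21368 genes with a symbol on the array, 35 were detected in young mouse muscle and on no old array. They were chosen by the scanner software's stricter detection flag, "well above background". Every probe of the gene lacked it on all 3 old arrays, and at least 1 probe carried it on all 3 young arrays. A probe with several spots counted as detected where 0.5 or more of its spots carried the flag. The gene Cilp2 and the collagen chains were left aside by name, which removed 2 of the 37 genes that fitted. The measured flags thus chose the 35 genes, so their difference between the ages is described here and not tested.

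The tissue was gastrocnemius, a mostly fast-fibred muscle of the calf, taken from male mice aged 13 weeks (young, 3 samples) or 25 months (old, 3 samples). No genotype, strain or treatment is given in the sources used here, and nothing says that each sample was a separate animal, so the spread between samples may be partly technical. Total RNA was labelled with Cy3 and hybridised to single-colour Agilent arrays, 1 sample per array and all on 1 slide. A level is given throughout as log2 of the spot signal minus the 75th percentile of the same array, so 0 is that percentile and not the absence of RNA.

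Muscle consists mainly of fibres with an abundant contractile programme, and genes at the edge of an array's detection are a different class. They can belong to scarce cells between the fibres (nerve, vessel, connective tissue, immune cells) or be transcribed weakly in the fibres themselves. In whole muscle, fewer cells of a type and less RNA per cell cannot be told apart.

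The arrays carried the marks of the labelled tissue. The 7 markers of fast muscle were detected on every array. Between 13583 and 14325 symbol genes were detected per array, and no gene spot was saturated. Old replicate 1 stood apart, its negative-control spots averaging 61.3 where the other arrays gave 51.9 to 55.1, a spike-in slope of 0.840 against 0.925 to 0.941, and the most genes detected (14325). Precision is limited by the number of arrays.

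The sequence upstream of a gene's start is shown first for the 6 members printed here. They are the 3 with the largest bound among those whose RefSeq entry could be used here, the only member with a TATAAA motif, and the oxytocin gene with its receptor. RefSeq (build GRCm38.p6) held an entry for 27 of the 35 members. Each line gives the 250 bases before the first listed start, 5′ to 3′. Capitals mark TATAAA in the last 50 bases, CCAAT or its reverse complement ATTGG, and GGGCGG or its reverse complement CCGCCC.
AU019990 promoter, chr2:132597946-132598195, plus strand: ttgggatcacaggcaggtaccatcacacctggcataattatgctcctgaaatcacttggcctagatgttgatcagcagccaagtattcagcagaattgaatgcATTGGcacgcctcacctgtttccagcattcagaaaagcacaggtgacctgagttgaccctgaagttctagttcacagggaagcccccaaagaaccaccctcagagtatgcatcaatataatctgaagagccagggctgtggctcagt
Slc6a20a promoter, chr9:123678833-123679082, minus strand: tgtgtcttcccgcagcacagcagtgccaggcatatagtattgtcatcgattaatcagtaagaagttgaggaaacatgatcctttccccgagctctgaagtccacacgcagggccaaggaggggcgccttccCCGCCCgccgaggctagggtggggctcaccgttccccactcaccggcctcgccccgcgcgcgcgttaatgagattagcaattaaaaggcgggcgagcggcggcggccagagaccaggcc
Cyp2s1 promoter, chr7:25816526-25816775, minus strand: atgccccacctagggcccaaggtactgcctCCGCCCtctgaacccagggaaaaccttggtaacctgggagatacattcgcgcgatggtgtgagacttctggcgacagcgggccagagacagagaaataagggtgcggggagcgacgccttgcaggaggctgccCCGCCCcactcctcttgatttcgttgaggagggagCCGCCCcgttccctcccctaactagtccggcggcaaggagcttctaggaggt
Serpinb3c promoter, chr1:107278372-107278621, minus strand: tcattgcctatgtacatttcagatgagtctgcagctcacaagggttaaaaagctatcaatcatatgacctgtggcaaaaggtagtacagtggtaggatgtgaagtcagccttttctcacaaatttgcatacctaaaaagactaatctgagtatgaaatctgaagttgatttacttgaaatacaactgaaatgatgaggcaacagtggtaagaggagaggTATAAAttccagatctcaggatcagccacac
Oxt promoter, chr2:130575919-130576168, plus strand: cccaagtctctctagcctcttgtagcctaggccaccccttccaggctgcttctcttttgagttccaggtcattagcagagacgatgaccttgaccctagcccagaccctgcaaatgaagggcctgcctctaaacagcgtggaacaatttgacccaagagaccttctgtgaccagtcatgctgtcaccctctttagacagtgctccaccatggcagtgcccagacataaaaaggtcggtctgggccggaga
Oxtr promoter, chr6:112489826-112490075, minus strand: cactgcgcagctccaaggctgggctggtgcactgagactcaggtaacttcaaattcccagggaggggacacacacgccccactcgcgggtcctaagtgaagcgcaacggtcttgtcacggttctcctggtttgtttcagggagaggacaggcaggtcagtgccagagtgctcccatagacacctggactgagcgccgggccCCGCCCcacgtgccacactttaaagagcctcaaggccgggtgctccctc

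The upstream region of Serpinb3c has TATAAA 31 bases before the start. That of Cyp2s1 holds CCGCCC at 3 places, and those of Slc6a20a and Oxtr hold it once each. None of these letters was found before the start of Oxt. Over the 300 bases from 250 before to 50 after the start, the median GC content of the 27 members was 53.3%, beside 57.0% over the 16916 symbol genes with an entry. The median ratio of observed to expected CpG was 0.490, beside 0.602. TATAAA in the 50 bases before the start was present in 1 of 27 (3.70%, beside 3.35%). CCAAT on either strand was in 6 (22.2%, beside 38.6%) and GGGCGG on either strand in 12 (44.4%, beside 48.2%). These are descriptions without a test.

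The 35 genes were a small class among those that changed their detection. They and the 2 named genes left aside make 0.173% of the symbol genes, and the same rule turned round (detected on every old array and no young array) gave 53 genes, 0.248%. Detection was shared by all 6 arrays for 12703 symbol genes and absent from all 6 for 5922. Another 126 genes missed the rule by detection on 1 old array, which was old replicate 1 for 85, old replicate 2 for 17 and old replicate 3 for 24. A further 80 missed it because 1 young array lacked detection. Both counts include collagen chains, which the rule leaves aside by name in any case.

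**Figure D1:**
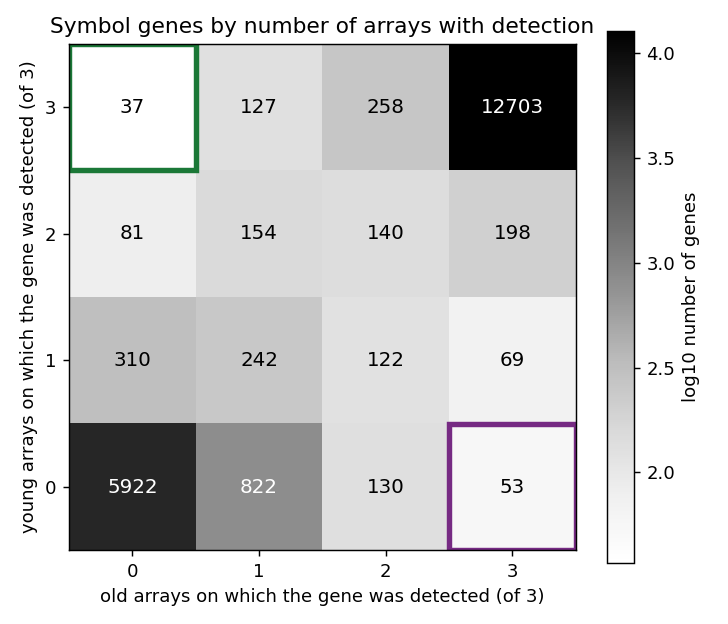
Number of symbol genes by how many of the 3 young arrays (vertical axis) and 3 old arrays (horizontal axis) detected them, shaded by log10 of the number. The outlined cell at top left holds the 37 genes of the rule before 2 are left aside by name, the outlined cell at bottom right the 53 of the reverse rule, and 12703 genes were detected on all 6 arrays.

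Most members were dim even in young muscle. Their young means ran from -3.75 to -1.17 with a median of -3.28, and in 26 of 35 the young mean lay less than 1 above the young arrays' mean detection limit (less than 0.5 in 9). The limit of an array is its lowest level at which a probe counted as well above background. It was -4.20, -3.91 and -3.88 on young replicates 1 to 3 and -3.87, -3.83 and -4.07 on old replicates 1 to 3. The signal in old muscle was low but, for most members, not nil. By the weaker flag, positive and significant, the member's probe was above background on all 3 old arrays in 30 genes and on 2 in the other 5. "Detected only in young muscle" therefore describes the stricter flag alone.

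Since a probe without the flag gives only a bound, each fold sets the young mean against old arrays raised to their limit, unless the measured old signal exceeded it. By this measure the genes were at least 1.13-fold to at least 6.72-fold lower in old muscle, with a median of 1.43-fold. The limit is the lowest over all probes of an array, and a member's own probe may need more signal to be flagged. In 20 of 35 members an old value without the flag lay above the limit of its array. Here and below, "at least" and "bound" thus refer to this floor and are no strict bound for a member's own probe. Of the 35, 2 were at least 4-fold lower, 8 at least 2-fold and 15 at least 1.5-fold. The measured signals differed by a median log2 of -1.11, from -3.46 to -0.29, beside a median of -0.06 over all 20907 genes tested. The genes tested include accessions without a symbol, whereas all members are symbol genes, so shares over the genes tested refer to a wider set. In 29 members every old value lay below every young value, which the rule favours. Over all genes tested 13.9% were ordered in this way. Limma's fit over all genes put 1 of 35 past an adjusted p of 0.05, the non-coding E330011O21Rik, beside 0.0574% of all genes called lower. Unadjusted limma p-values under 0.05 were reached by 29 of 35, beside 8.38% of all genes lower in old muscle. Nothing is read from these counts, as the rule used the same contrast. E330011O21Rik did not pass without old replicate 2 or 3, without the filter on dim probes or with the slide row as a fitted term, while Akr1c18 also passed without old replicate 1. Without a young array no member could be tested, because the filter asks for 3 arrays with detection.

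**Figure D2:**
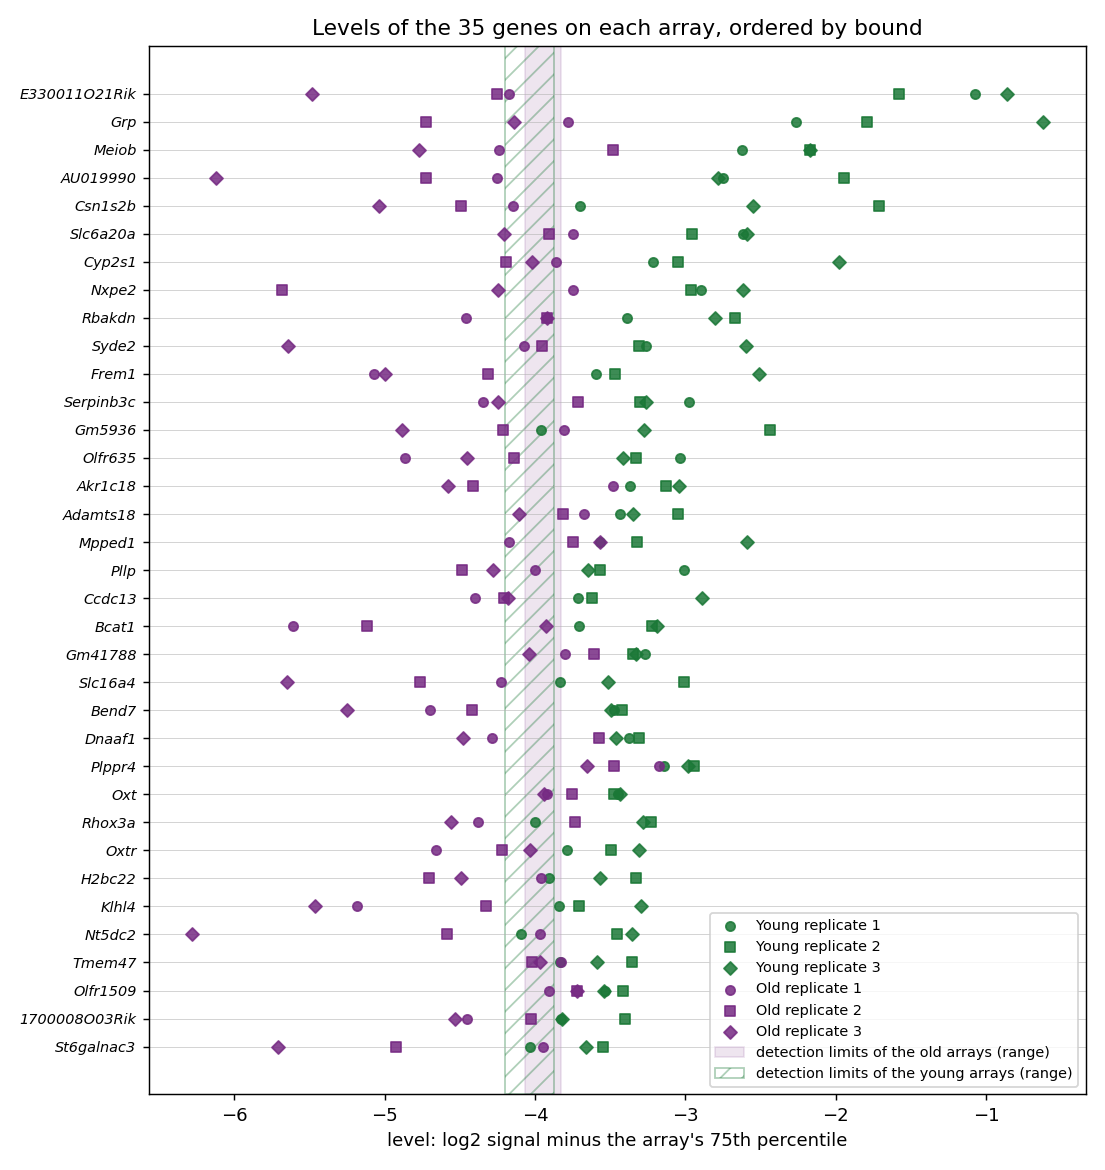
Level of each of the 35 genes on each array (horizontal axis, log2 signal minus the array's 75th percentile), ordered by bound, with young arrays in green and old arrays in purple. The bands give the range of detection limits, -4.20 to -3.88 on the young arrays and -4.07 to -3.83 on the old arrays; E330011O21Rik and Grp lie farthest to the right in young muscle.

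The members are described in an order set by hand from what each gene is known to do, after they were known, and the order is no theme of the set. Of the 35, 2 stood on any of the fixed gene lists.

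The 2 largest bounds belonged to a non-coding RNA and a neuropeptide. E330011O21Rik, annotated as a long non-coding RNA, stood at -1.08, -1.58 and -0.86 on young replicates 1, 2 and 3 and at -4.18, -4.25 and -5.48 on old replicates 1, 2 and 3. All 3 young values were thus more than 2.5 above the old ones, and the bound was at least 6.72-fold. Grp encodes gastrin-releasing peptide, a bombesin-like neuropeptide of sensory and gut neurons, and stood at -2.27, -1.79 and -0.62 on young replicates 1, 2 and 3 and at -3.78, -4.73 and -4.14 on old replicates 1, 2 and 3. Young replicate 3 was the highest, and the groups did not overlap. The bound was at least 5.03-fold and the measured difference -2.65. Its receptor gene Grpr was dark on all 6 arrays. The related peptide gene Nmb was detected on all 6, at 2.43 ± 0.21 in young and 2.09 ± 0.26 in old muscle (SD, n = 3; limma adjusted p = 0.475). The receptor gene Nmbr was detected on 1 young and 2 old arrays.

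The set held both oxytocin and its receptor, at levels close to the limit. Oxytocin is a hypothalamic peptide hormone of labour, lactation and social behaviour, and it is also known to act on muscle stem cells. Oxt stood at -3.45, -3.48 and -3.43 on young replicates 1, 2 and 3 and at -3.92, -3.75 and -3.94 on old replicates 1, 2 and 3. The young values lay within 0.04 of each other and above all old values, but the bound was only 1.32-fold. Oxtr, the G protein-coupled receptor, was at -3.79, -3.50 and -3.31 on the young arrays against -4.66, -4.22 and -4.03 on the old arrays, without overlap, and at least 1.30-fold lower. Avp, the gene of the related peptide vasopressin, was dark on all 6 arrays. Lnpep, a peptidase that cleaves oxytocin, was detected on all 6 and had a log2 difference of 0.19 ± 0.19 (SE, n = 3; limma adjusted p = 0.664). Avpr1a was detected on 2 young arrays and 1 old array.

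Meiob, which binds single-stranded DNA in meiotic recombination, stood at -2.62, -2.17 and -2.17 on young replicates 1, 2 and 3 and at -4.24, -3.49 and -4.77 on old replicates 1, 2 and 3. It was at least 2.80-fold lower in old muscle, where old replicate 2 was the brightest. Spata22, its meiotic partner, was dark on all 6 arrays. Csn1s2b, a casein of milk, stood at -3.70, -1.71 and -2.55 on young replicates 1, 2 and 3 and at -4.15, -4.49 and -5.04 on old replicates 1, 2 and 3. Young replicate 1 lay 0.45 above the highest old value and young replicate 2 far above both, so the spread between young arrays was the widest of all members (SD 1.0, n = 3). The casein genes Csn1s1, Csn1s2a, Csn2 and Csn3 were dark throughout, as was the second probe of Csn1s2b. Rhox3a, a homeobox gene of the reproductive cluster on the X chromosome, was at -4.0, -3.23 and -3.28 on the young arrays against -4.38, -3.73 and -4.56 on the old arrays. Its groups overlapped, because old replicate 2 exceeded young replicate 1.

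Akr1c18 encodes the 20-alpha-hydroxysteroid dehydrogenase that inactivates progesterone. It stood at -3.37, -3.13 and -3.04 on young replicates 1, 2 and 3 and at -3.48, -4.41 and -4.58 on old replicates 1, 2 and 3, with old replicate 1 just under the lowest young array, and was at least 1.53-fold lower. The progesterone receptor gene Pgr was dark on all 6 arrays. Of the 64 germ cell and testis genes on a fixed list, Meiob was the only member (1.56%, beside 0.164% of all symbol genes). Meig1 was the only gene of the list detected on all old and no young arrays. On the same list 9 genes were detected on all 6 arrays and 38 on none, among them the germ cell markers Ddx4 and Dazl. The summed signal of that list, relative to the 75th percentile, ran from 9.16 to 10.1 on the young arrays and from 8.67 to 11 on the old arrays. Of 49 genes of steroid, thyroid and retinoid metabolism, Akr1c18 was the only member (2.04%, beside the same 0.164%). In limma's fit 0 of the 25 tested genes of that list passed, and 0 of 16 of the germ cell list. At an unadjusted limma p under 0.05 there were 8 in the steroid list, 6 of them lower in old muscle, and 3 in the germ cell list, 2 of them lower. Beside these, 8.38% of all genes tested were lower in old muscle at that p.

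Slc6a20a, a sodium-coupled carrier of proline and other imino acids, stood at -2.62, -2.96 and -2.59 on young replicates 1, 2 and 3 and at -3.75, -3.91 and -4.21 on old replicates 1, 2 and 3. The young arrays kept within 0.37 of each other, and the bound was at least 2.23-fold. Its paralogue Slc6a20b was dark on all 6 arrays. Slc16a4, of the monocarboxylate transporter family, was at -3.84, -3.01 and -3.51 on the young arrays against -4.23, -4.76 and -5.65 on the old arrays, at least 1.38-fold lower. The related lactate exporter gene Slc16a3 was bright, at 8.37 ± 0.16 in young and 7.57 ± 0.24 in old muscle (SD, n = 3; limma adjusted p = 0.161). Of 388 solute carriers on the array, these were the 2 members (0.515%, beside 0.164% of all symbol genes), and 1 carrier, Slc15a3, met the reverse rule.

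Of 98 P450 genes on the array, 2, Cyp4f14 and Cyp4f39, met the reverse rule. Cyp2s1, a cytochrome P450 found in epithelia outside the liver, was the only member among the 98 (1.02%, beside 0.164% of all symbol genes). It stood at -3.21, -3.05 and -1.98 on young replicates 1, 2 and 3 and at -3.86, -4.19 and -4.02 on old replicates 1, 2 and 3. Young replicate 3 was more than 1 above the other young arrays, and the bound was at least 2.23-fold. Bcat1, the cytosolic branched-chain aminotransferase, was at -3.71, -3.22 and -3.19 on the young arrays against -5.61, -5.12 and -3.93 on the old arrays. The bound was at least 1.42-fold, although the measured difference was -1.51. Only 1 of its 3 probes was detected on any young array, and another probe reached -3.88 on old replicate 1, close to the limit of that array. The log2 differences of the undetected probes were 0.83 and -0.06, and the mean of the 3 probes gave -0.25. The mitochondrial isoenzyme gene Bcat2 was at 4.65 ± 0.31 in young and 4.33 ± 0.74 in old muscle (SD, n = 3; limma adjusted p = 0.721). St6galnac3, a sialyltransferase, had the smallest bound (1.13-fold) with old replicate 1 above young replicate 1. Nt5dc2, a nucleotidase-domain protein, overlapped in the same way and had a bound of 1.22-fold.

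No member stood on the fixed lists of neuron and synapse (50 genes on the array, with Tubb3 meeting the reverse rule) or of axon guidance and neurites (54 genes). Syde2, of the synapse-defective family, stood at -3.26, -3.31 and -2.60 on young replicates 1, 2 and 3 and at -4.07, -3.96 and -5.64 on old replicates 1, 2 and 3 and was at least 1.82-fold lower. On old replicate 3 the signal of Syde2 was negative after background subtraction, so the level there is no measured amount. Plppr4, a phospholipid phosphatase-related protein of excitatory synapses, was at -3.14, -2.94 and -2.98 on the young arrays against -3.18, -3.47 and -3.65 on the old arrays. It was the least dark member in old muscle, with old replicate 1 0.04 under young replicate 1, and its bound of 1.33-fold equals its measured difference of -0.41. Of its family, Plppr1, Plppr2 and Plppr5 were dark on all arrays. Plppr3 had a log2 difference of 2.23 ± 0.32 (SE, n = 3; limma adjusted p = 0.0619).

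Pllp, the myelin membrane protein plasmolipin, was at -3.01, -3.57 and -3.65 on the young arrays against -4.0, -4.49 and -4.28 on the old arrays and at least 1.43-fold lower. On the fixed list of 24 Schwann cell and myelin genes, of which Pllp is not one, 18 were detected on all 6 arrays, and Cdh19, Pmp2 and Ugt8a on none. Limma's fit called 1 of the 21 tested lower, Prx, and their median difference was -0.60. At an unadjusted limma p under 0.05 there were 12 of the 21, of which 11 were lower in old muscle. Over all genes tested, 8.38% were lower at that p. The summed signal of the list ran from 31.9 to 52.6 on the young arrays and from 30.5 to 47.3 on the old arrays. The part of these cells in the level of Pllp was not tested.

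Frem1, which with Fras1 and Frem2 forms a complex beneath epithelia, stood at -3.60, -3.47 and -2.51 on young replicates 1, 2 and 3 and at -5.07, -4.31 and -5.0 on old replicates 1, 2 and 3. It was at least 1.66-fold lower, without overlap. Fras1 was detected on 3 young arrays and 2 old arrays, with a log2 difference of -1.92 ± 0.33 (SE, n = 3; limma adjusted p = 0.0982). Frem2 was detected on all 6, with -0.26 ± 0.29 (adjusted p = 0.697). Adamts18, a secreted metalloprotease, was at -3.43, -3.05 and -3.35 on the young arrays against -3.68, -3.81 and -4.11 on the old arrays. Its bound of 1.49-fold nearly equals the measured difference of -0.59, and its relative Adamts16 was dark throughout.

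**Figure D3:**
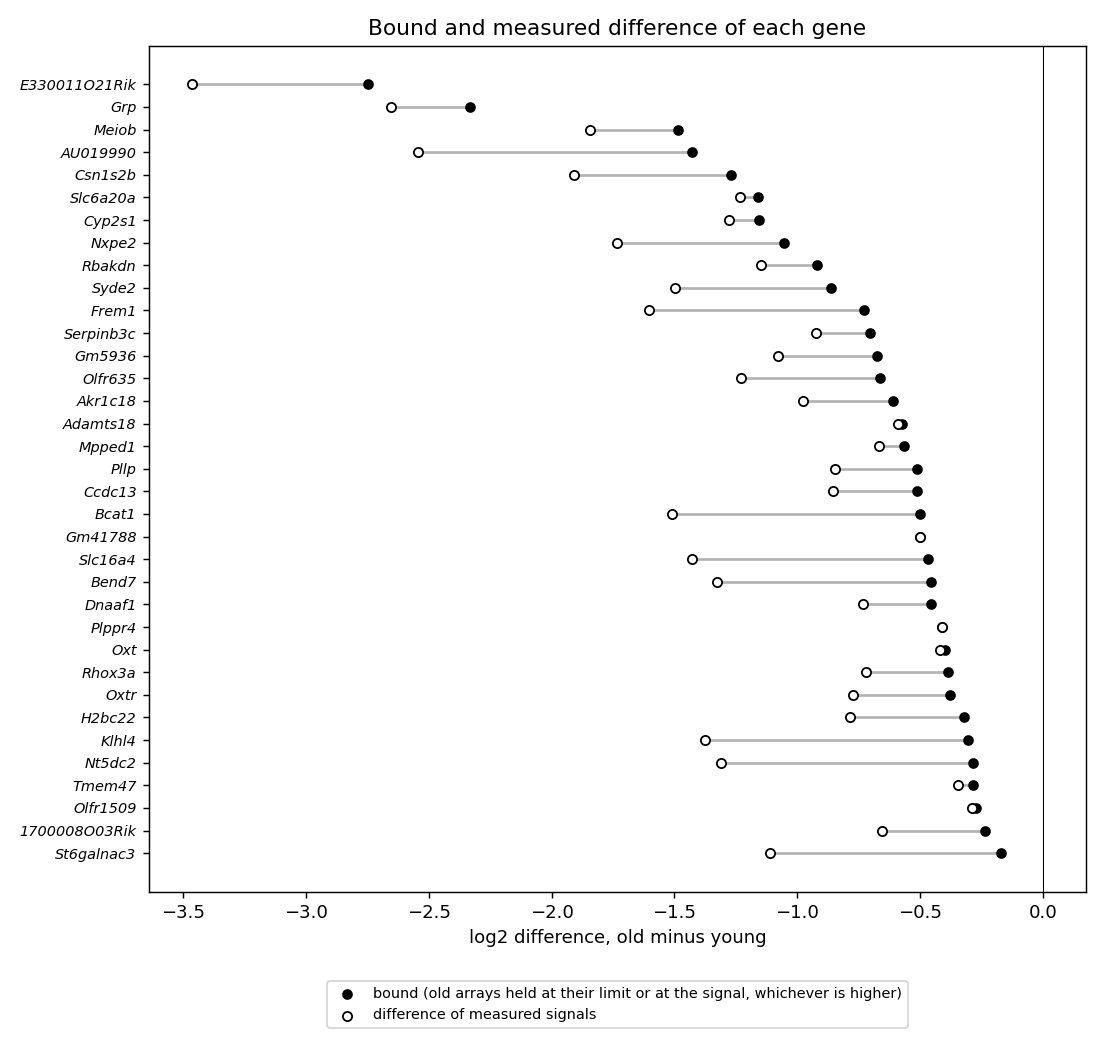
Bound (filled circles) and difference of the measured signals (open circles), both as log2 of old minus young (horizontal axis), for each of the 35 genes. For Plppr4, Oxt and Adamts18 the circles nearly meet, while for AU019990, Klhl4, Nt5dc2 and Bcat1 the measured difference is more than 1 log2 unit beyond the bound.

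Dnaaf1, an assembly factor of axonemal dynein, was at -3.37, -3.31 and -3.46 on the young arrays against -4.29, -3.57 and -4.48 on the old arrays, with a bound of 1.37-fold. Ccdc13, a centriolar satellite protein, was at -3.72, -3.62 and -2.89 on the young arrays against -4.40, -4.21 and -4.18 on the old arrays, with a bound of 1.43-fold, and neither gene overlapped between the ages. The assembly factor genes Dnaaf2 (0.06 ± 0.19, adjusted p = 0.895) and Dnaaf3 (0.77 ± 0.29, adjusted p = 0.305) had log2 differences above 0 in limma's fit (SE, n = 3).

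Members of large gene families need care, since near-identical copies can share a probe. Serpinb3c, a clade B serpin, was measured by 10 spots per array, of which 10, 10 and 9 were well above background on young replicates 1 to 3 and 1, 3 and 3 on old replicates 1 to 3. Its mean levels were -2.98, -3.30 and -3.26 on the young arrays against -4.35, -3.72 and -4.25 on the old arrays. The other members each had 1 spot per probe, so the SD of log2 signal over the spots of Serpinb3c is the only measure here of the error of a single spot. It was 0.40, 0.29 and 0.38 on young replicates 1 to 3 and 0.63, 0.52 and 0.59 on old replicates 1 to 3. The median SD between arrays over the members was lower, at 0.29 for the young and 0.42 for the old arrays. The rule favours a narrow spread between arrays, since it asked for the same flag on all arrays of an age. The SD over spots is of 1 gene only, so nothing is read from the comparison. The olfactory receptors Olfr635 and Olfr1509 were 2 of 1383 olfactory, vomeronasal and taste receptors on the array (0.145%, beside 0.164% of all symbol genes). Of these receptors, 1131 were dark on all arrays. Olfr635 was at least 1.58-fold lower and Olfr1509 at least 1.21-fold. The histone gene H2bc22 had a bound of 1.25-fold.

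Other non-coding and little-described genes completed the set. AU019990, a long non-coding RNA, stood at -2.75, -1.95 and -2.78 on young replicates 1, 2 and 3 and at -4.25, -4.73 and -6.12 on old replicates 1, 2 and 3, and was at least 2.69-fold lower. Its other probe was dark on all arrays. Nxpe2, of the neurexophilin and PC-esterase family, was at -2.90, -2.97 and -2.62 on the young arrays against -3.75, -5.68 and -4.25 on the old arrays, at least 2.08-fold lower. On old replicate 2 its signal was negative after background subtraction, so the level there is no measured amount. The non-coding Rbakdn, named as the downstream neighbour of Rbak, was at -3.39, -2.67 and -2.80 on the young arrays against -4.46, -3.92 and -3.92 on the old arrays, at least 1.89-fold lower. Nxpe2 and Rbakdn did not overlap between the ages. Gm41788, also non-coding, was at -3.27, -3.35 and -3.33 on the young arrays against -3.80, -3.61 and -4.04 on the old arrays, with young arrays within 0.07 of each other and a bound of 1.42-fold.

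The predicted gene Gm5936 was at -3.96, -2.44 and -3.28 on the young arrays against -3.81, -4.22 and -4.88 on the old arrays. Its groups overlapped, as young replicate 1 lay below old replicate 1. Mpped1, a metallophosphoesterase-domain protein, was at -3.57, -3.33 and -2.59 on the young arrays against -4.18, -3.75 and -3.57 on the old arrays. Here old replicate 3 and young replicate 1 coincided to 2 decimals, with a bound of 1.48-fold. Bend7, a BEN-domain protein, was at -3.47, -3.42 and -3.50 on the young arrays against -4.70, -4.42 and -5.25 on the old arrays, and Klhl4, of the kelch-like family, was at -3.84, -3.71 and -3.30 on the young arrays against -5.19, -4.33 and -5.46 on the old arrays. Neither overlapped, with bounds of 1.37-fold and 1.24-fold beside measured differences of -1.33 and -1.38. Tmem47, a junctional membrane protein, and 1700008O03Rik were near the limit, with bounds of 1.22-fold and 1.18-fold. The groups of Tmem47 overlapped.

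In all, 31 members were protein-coding (88.6%, beside 93.1% of symbol genes) and 4 were long non-coding RNAs (11.4%, beside 5.83%). A single probe represented 30 of them (85.7%, beside 73.1% of symbol genes), which the rule favours since every probe had to be dark in old muscle. In each of the 5 with more probes (AU019990, Csn1s2b, Plppr4, Bcat1 and 1700008O03Rik) only 1 probe was detected on any young array, so their detection rests on a single probe. Of the 22 fixed gene lists, which put 1077 genes on the array, 20 held no member. The lists with none included those of neuron and synapse, axon guidance, Schwann cells, cell cycle, DNA replication, Wnt and BMP signalling, satellite cells, T cells, B cells, myeloid cells, endothelium, adipocytes and the clock. The 2 members in lists make 0.186% of their genes, beside 0.164% of all symbol genes. At such a share most lists of this size would hold none, so nothing is read from the lists without a member.

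The members' order among arrays of an age varied. Young replicate 1 was the lowest young array in 22 of 35 members and young replicate 3 the highest in 16. Among the old arrays, replicate 1 was the brightest in 17 and replicate 3 the dimmest in 20. The median level over the members was -3.45, -3.31 and -3.28 on young replicates 1 to 3 and -4.15, -4.21 and -4.45 on old replicates 1 to 3. The slide's first row carried all young arrays together with old replicate 1, and its second row the other old arrays. Within the first row, old replicate 1 differed from the young arrays by a median of -0.99. The blocked fit on slide row gives this same quantity, since the second row held only old arrays. All 35 differences were below 0, which the rule favours, as it asked for no detection on old replicate 1. The part of slide row in the differences was not tested.

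At the edge of the rule, the members with the least young signal were St6galnac3, 1700008O03Rik and Nt5dc2, at young means of -3.75, -3.69 and -3.64, or 0.25, 0.31 and 0.36 above the limit. The brightest genes just outside were missed for 1 old array, in each case old replicate 1. Cep85l, a centrosomal protein gene, stood at 2.75, 3.21 and 1.87 on the young arrays and at 2.46, -3.32 and -4.65 on the old arrays. Aspn, the matrix proteoglycan asporin, stood at -0.06, -0.09 and -0.25 and at -0.61, -3.75 and -5.71. Wif1, a secreted Wnt inhibitor, stood at -0.87, 0.35 and 0.08 and at -3.51, -4.41 and -4.92. For Cep85l and Aspn, old replicate 1 was thus near the young arrays and the other old arrays were dark, while for Wif1 all old arrays lay below the young ones.

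Which genes fit depended on where detection was set. With 1 common limit of -3.83 for all scaled arrays 22 genes fitted, 14 of them among the 35. Grp, Meiob, Slc6a20a, Oxt and Akr1c18 were lost, since an old value reached that limit, while E330011O21Rik, AU019990, Csn1s2b, Cyp2s1 and Oxtr stayed. In all, 15 members had an old value at or above the common limit and 8 a young value below it. With the weaker flag 55 genes fitted and 0 of them were members. No member could fit there, since each member's probe carried that flag on at least 2 old arrays. Without old replicate 1 the rule gave 117 genes, 82 of them beyond the 35. Leaving out an array could only add genes. After normexp background correction, whose offset compresses dim signals, the measured differences ran from -1.23 to -0.12, and 3 members in place of 15 had a bound of at least 1.5-fold.

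**Figure D4:**
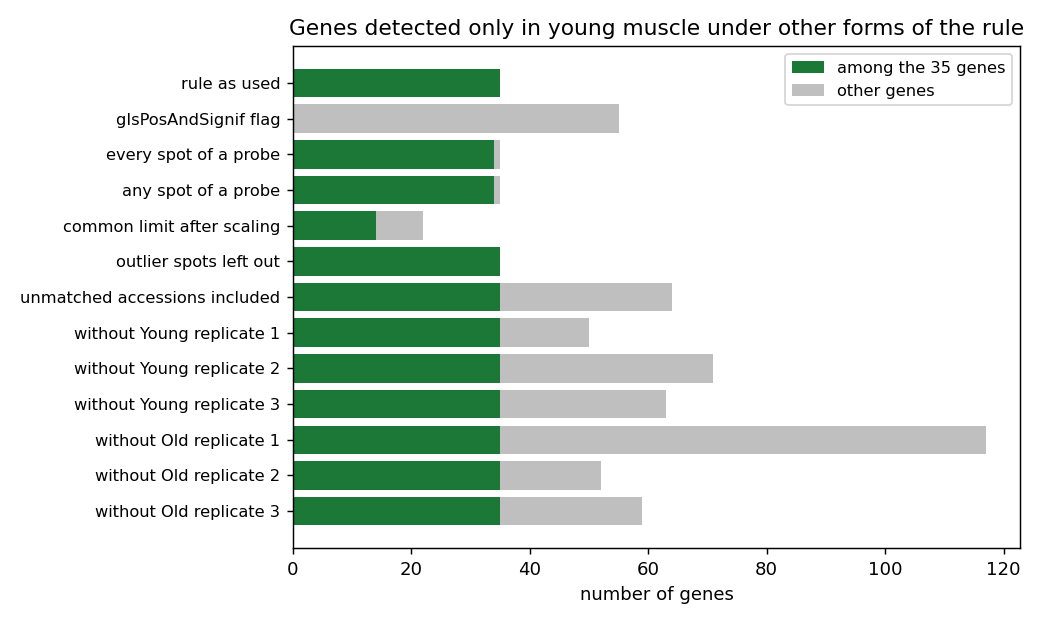
Number of genes detected only in young muscle (horizontal axis) under the rule as used and 12 other forms, split into those among the 35 (green) and other genes (grey). Leaving out old replicate 1 gave 117 genes, the common limit 22, and the weaker flag 55, of which 0 were among the 35.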

How the data were processed

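Spot intensity was deposited by the authors as scanner output of Agilent Feature Extraction, which subtracts background and detrends (version 11.0.1.1 per the file headers, 9.5 per the submitters' processing notes). The authors' deposited value table equals that intensity over the array's 75th percentile, times 100, within 0.5 in each of 62976 values per array. It is linear and not centred per gene, its column medians are 6 to 9, and it served as an alternative. The software's flags (the file's other columns) were used as deposited by the authors.

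Control spots and 161 to 212 outlier-flagged gene spots per array were left out of the levels. The log2 signal minus its 75th percentile over 55681 probes was averaged per probe. RefSeq accessions (GRCm38.p6) gave 28331 probes a symbol. The array grid names mm9, so coordinates of the gene table (GRCm38.p6) served only to order genes along the chromosome for the neighbours. A member is shown by its detected probe with the highest young mean.

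Limma 3.58.1 (R 4.3.3, lmFit and eBayes, Benjamini-Hochberg) compared the ages over 20907 genes well above background on at least 3 arrays. Each gene was taken by its brightest kept probe. Accessions without a symbol counted as genes in this fit, so the genes tested are a wider set than the symbol genes. The fit was tested on simulated data. An exact test of 3 against 3 cannot go below 0.10, so none is given. Members, lists and groupings were chosen with earlier results of these data known, and the partner genes after the members were seen. The naming rule takes the 25 largest bounds among members without clone or predicted names, up to 4 members of each list, and 3 genes on each side of the threshold, and the other members were named after their values were seen. Alternatives were other normalizations, normexp (offset 50, on the median signal, as the files hold no mean signal), the authors' values, filters, probe rules, blocks and leaving out each array. Protein length was not analysed here. Tools were Python 3.11.15, pandas 2.3.3, numpy 2.4.6 and matplotlib 3.10.9.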

Additional observations from a re-analysis of the deposited data

How the results depend on the processing

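The count of members was 35 also when every spot or any spot of a probe decided, with 34 of the 35 shared each time, and when outlier spots were left out. It was 55 with the weaker flag, 22 with a common limit, 64 with unmatched accessions included, and 50 to 117 with 1 array left out. Leaving out an array removes a condition of the rule, so this count could only rise and all 35 had to stay. The number of genes limma called, 53, was 8 with no filter, 35 with detection on all 6 arrays and 1 to 186 with 1 array left out (186 without old replicate 1, 1 without old replicate 3). The number of members called, 1, was 2 with median centring (Grp added), 0 without the filter (28 members at an unadjusted limma p under 0.05), 0 when slide row was a block (17 so), and 0 to 2 when leaving out 1 old array (0 without old replicate 2 or 3, with 26 and 20 so).

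With the replicate number as a block, limma called 5 genes and 0 members (29 at an unadjusted limma p under 0.05). The median difference of the members is -1.11 there by construction, since each number is held by a young and an old array. Same-numbered samples deviated from their group means with correlations of -0.06, -0.28 and 0.02, so the numbers were not taken as pairs. The median difference of the members was -0.32 with normexp and -0.90 to -1.18 with 1 array left out. The count with a bound of at least 1.5-fold was 15, was 3 with normexp, and was 15 to 20 with 1 array left out. This count was 11 when the limit was the median level of the dimmest 1% of detected probes. Over 13 alternatives, 455 differences of single members all stayed below 0. The rule favours this sign, since the alternatives rework the signals that chose the members. Of these differences, 43 moved by more than the SD between replicates, 29 of them with normexp. Signal close to background limits all of these values.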

Other observations

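Genes beside the members on the chromosome were looked up after the members were known. The nearest measured symbol gene on each side (order from RefSeq GRCm38.p6) gave 70 neighbours, of which 0 were members, 41 were detected on all 6 arrays and 21 on none. Of the 44 detected on at least 3 arrays, 15 (34.1%) had every old value below every young value, beside 14.8% of the 13862 symbol genes kept in the same way. Their median log2 difference was -0.15, beside -0.06. Among the 15, Gm2176 beside Gm41788 had the largest difference (-2.06), with Ctdp1 on its other side at -0.04. The sides of a member could differ. E330011O21Rik had Mir99ahg at -0.65 and Cxadr at 0.45, Akr1c18 had the related genes Akr1c14 at -0.85 and Akr1c13 at 0.81, and AU019990 had Gpcpd1 at -1.17 and Shld1 at -0.08. Neighbours of related sequence may share probe signal with a member, and overlapping transcripts cannot be told apart here. The difference between the shares was not tested.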
